A study of Mus musculus with 9 samples.

Results

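Lipid droplets store triglyceride and cholesterol ester behind a phospholipid monolayer that carries a coat of proteins. In hepatocytes they grow when fatty acids arrive faster than they are burned or secreted, and they shrink when lipases release fatty acids from the core. Fat storage-inducing transmembrane (FIT) proteins of the endoplasmic reticulum help new droplets form, perilipins coat them and gate access to the core, CIDE proteins act in droplet fusion and lipoprotein lipidation, and adipose triglyceride lipase starts hydrolysis under the control of its inhibitor G0S2. The genes described here are the FIT genes Fitm1 and Fitm2, the perilipins Plin2, Plin4 and Plin5, the CIDE genes Cidea, Cideb and Cidec, the lipase gene Pnpla2 and the inhibitor gene G0s2. They were chosen by symbol, and each of the 10 had 1 entry among the 22701 genes of the deposited table.

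The study sequenced rRNA-depleted RNA of 9 mouse livers, 1 per animal, taken at 5 weeks of age. The background was C57BL/6 and 129svPas. HP1ag_KO livers (n = 3) lacked HP1α throughout and had HP1γ deleted in the liver. HP1a_KO livers (n = 2) lacked HP1α, the HP1ab_KO liver (n = 1) lacked HP1α and had HP1β deleted in the liver, and WT livers (n = 3) carried neither change. All 6 mutant livers thus share the loss of HP1α. The labels name no driver of the liver deletions, no litter and no sex, and a bulk liver includes cells in which a liver deletion may not act. HP1α, HP1β and HP1γ are heterochromatin proteins encoded by Cbx5, Cbx1 and Cbx3, and the series concerns their role as tumour suppressors of mouse liver.

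Values are the authors' normalised read counts, in which a library's reads are divided by 1 size factor. Libraries held 26375545 to 36161177 reads, apart from HP1a_KO replicate 1 with 16266423, so low genes are less precise there. The targeted genes were lower in the genotypes so labelled, with transcripts remaining. Cbx5 averaged 743 ± 75.8 in HP1ag_KO, 538 ± 53.3 in HP1a_KO, 663 in HP1ab_KO and 1235 ± 279 in WT livers (SD), Cbx3 averaged 349.7 ± 27.5 in HP1ag_KO and 605 ± 59.7 in WT livers, and Cbx1 stood at 217 in the HP1ab_KO liver, against 917 ± 146 in WT livers. Cbx1 was also below every WT liver in both HP1a_KO livers, whose labels name no change of HP1β (614 ± 222, log2 difference -0.62 ± 0.23, limma adjusted p = 0.457). All 11 hepatocyte markers analysed were abundant, with summed values of 3.83e+06 to 3.98e+06 in HP1ag_KO, 3.71e+06 to 4.08e+06 in HP1a_KO, 3.78e+06 in HP1ab_KO and 3.07e+06 to 3.94e+06 in WT livers. Alb made up 61.5% of that sum. Without Alb it was 1.364e+06 to 1.512e+06 in HP1ag_KO, 1.517e+06 to 1.525e+06 in HP1a_KO, 1.444e+06 in HP1ab_KO and 1.344e+06 to 1.454e+06 in WT livers. Differences below are limma estimates on the log2(value + 1) scale with their SE, and adjusted p-values cover the 13845 genes whose mean reached 10. That scale understates the change of low genes. The p-values measure the spread between these livers, since the labels do not describe how the animals relate.

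The promoters of the FIT pair and of Plin2 are shown for the following reasons. Of the 10 genes, Fitm1 is the one whose levels in all 6 HP1α-deficient livers lay below those in WT livers. Fitm2 is its paralogue and overlapped between these groups, and Plin2 is the most abundant of the 10 genes per kilobase. RefSeq windows of GRCm38.p6 run from 250 bases before to 50 bases after the annotated start, 5′ to 3′ along the gene. Of the 10 genes, 9 had an entry.
Fitm1 (chr14:55575424-55575723, plus strand): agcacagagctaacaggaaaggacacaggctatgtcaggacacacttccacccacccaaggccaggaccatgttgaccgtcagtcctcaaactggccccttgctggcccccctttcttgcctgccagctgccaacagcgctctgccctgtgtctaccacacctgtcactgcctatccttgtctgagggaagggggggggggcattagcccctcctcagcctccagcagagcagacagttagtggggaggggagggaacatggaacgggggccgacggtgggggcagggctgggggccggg
Fitm2 (chr2:163472580-163472879, minus strand): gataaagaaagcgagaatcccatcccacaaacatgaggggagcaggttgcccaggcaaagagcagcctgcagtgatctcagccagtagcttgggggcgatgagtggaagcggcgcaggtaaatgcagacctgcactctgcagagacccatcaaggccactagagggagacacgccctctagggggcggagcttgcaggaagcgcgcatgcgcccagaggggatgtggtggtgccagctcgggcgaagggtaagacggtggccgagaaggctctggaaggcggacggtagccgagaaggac
Plin2 (chr4:86670010-86670309, minus strand): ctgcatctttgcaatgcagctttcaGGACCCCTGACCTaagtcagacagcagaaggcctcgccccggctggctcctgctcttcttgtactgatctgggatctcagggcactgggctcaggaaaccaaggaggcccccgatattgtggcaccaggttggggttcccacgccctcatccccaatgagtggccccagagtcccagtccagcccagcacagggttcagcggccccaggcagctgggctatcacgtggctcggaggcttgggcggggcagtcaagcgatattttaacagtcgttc
Capitals in the Plin2 window mark a match with 2 mismatches to a pair of AGGTCA sites separated by 1 base, the direct repeat bound by PPAR and RXR receptors, found on the strand opposite to the gene and starting 225 bases before the start. Both strands of all windows were searched, and no other member's window held such a match. Among 32851 promoter windows of the same length, 3.86% held a match with up to 2 mismatches and 0.0396% an exact one. The windows held 6 CpG dinucleotides for Fitm1, 16 for Fitm2 and 10 for Plin2, and the median over all windows was 7 with quartiles of 3 and 20. These matches and counts describe the letters of the windows, and no binding was measured.

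Per kilobase of exon, Plin2 was the most abundant of the genes in every liver, at 3102 ± 820 normalised reads per kilobase (mean ± SD over 9 livers). Cideb followed with 1420 ± 211, G0s2 with 1337 ± 878, Plin5 with 656 ± 135, Pnpla2 with 503 ± 122 and Fitm2 with 479.7 ± 103. Fitm1 stood at 79.0 ± 46.3, Plin4 at 67.0 ± 47.3, Cidec at 17.1 ± 10.9 and Cidea at 0.788. The lowest liver of the higher gene stood above the highest liver of the lower gene for Plin2 over Cideb, Fitm2 over Fitm1 and Cidec over Cidea, and for no other neighbours in this order. Cideb exceeded G0s2 in 6 of 9 livers and Pnpla2 exceeded Fitm2 in 4 of 9, so their places in the order are not set by these data. G0s2 had the widest range, 23.1-fold between its lowest and highest liver, followed by Fitm1 (6.28-fold), Plin4 (5.92-fold) and Cidec (5.64-fold), while the other tested genes varied by 1.62-fold (Cideb) to 2.42-fold (Plin2).

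**Figure D1:**
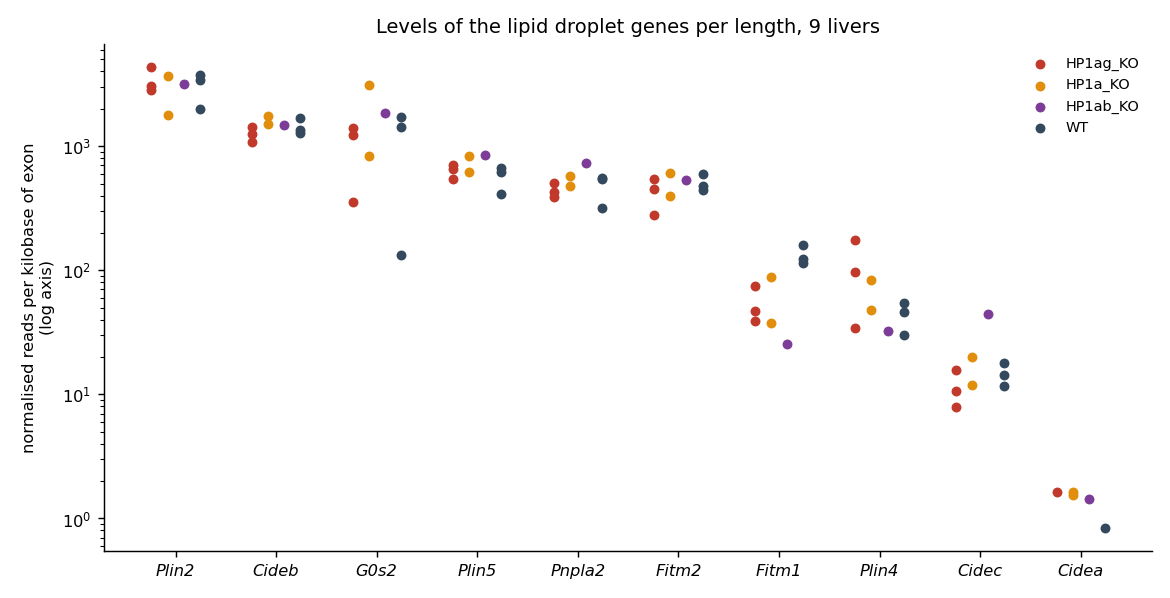
Normalised reads per kilobase of exon (log axis) of the 10 lipid droplet genes, ordered by their mean, with 1 point per liver coloured by genotype and livers with a Cidea value of 0 not drawn. Plin2 lay between 1795 and 4342 and Cidea at most at 1.65, and WT livers were the highest for Fitm1.

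Fitm1 and Fitm2 encode the paired FIT proteins, of which FIT1 is known mainly from skeletal and heart muscle and FIT2 from many tissues. Fitm1 (ENSMUSG00000022215, chr14:55575617-55576954 in GRCm38, plus strand) had 72.9, 46.0 and 37.9 normalised reads in HP1ag_KO livers, 36.7 and 85.2 in HP1a_KO livers and 24.8 in the HP1ab_KO liver, against 156, 111 and 119.9 in WT livers. Every HP1α-deficient liver lay below every WT liver, the HP1ag_KO livers lay within the range of the HP1a_KO livers, and the HP1ab_KO liver was the lowest. These values rest on 31 to 99 reads in the mutant livers, apart from 20 in HP1a_KO replicate 1, and on 117 to 175 reads in WT livers. Means were 52.2 ± 18.3 in HP1ag_KO livers, 60.9 ± 34.3 in HP1a_KO livers and 129 ± 23.5 in WT livers. In whole liver, fewer cells of a type and less RNA per cell cannot be told apart.

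Over the 6 HP1α-deficient livers, Fitm1 stood at 36.8% of the WT level, a log2 difference of -1.44 ± 0.31 (unadjusted p = 0.00161 and limma adjusted p = 0.617). By genotype the log2 difference from WT was -1.33 ± 0.36 in HP1ag_KO livers (limma adjusted p = 0.542), -1.17 ± 0.40 in HP1a_KO livers (adjusted p = 0.457) and -2.32 ± 0.51 in the HP1ab_KO liver (adjusted p = 0.999). These 3 comparisons share the WT livers. HP1ag_KO against HP1a_KO gave -0.15 ± 0.40 with an unadjusted interval of -1.08 to 0.77. None of these passed the threshold by limma, which called 0 of the 13845 genes in any of the 5 comparisons (percent called 0). At an unadjusted p under 0.05 limma found 512 to 2240 genes per comparison. The quasi-likelihood test of edgeR also called 0 and found 524 to 2193 at an unadjusted p under 0.05.

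DESeq2 on the recovered whole reads did call Fitm1 over the 6 HP1α-deficient livers, with a log2 difference of -1.39 ± 0.33 and an adjusted p of 0.0141. Among the members only Fitm1 was in the 46 genes so called, which were 0.332% of those tested. The 46 also held Aadac, a gene of the wider droplet pathway described below. DESeq2 also called Fitm1 in the HP1ab_KO liver against WT (adjusted p = 0.0428, with 0.0795% of genes called), but not in HP1ag_KO (adjusted p = 0.0847) or HP1a_KO livers (adjusted p = 0.355, with 0.643% of genes called). When each library was left out in turn, DESeq2 called Fitm1 over the HP1α-deficient livers in 5 of 9 fits. It did not call Fitm1 after omission of WT replicate 1 (adjusted p = 0.231), WT replicate 2 (0.0531), WT replicate 3 (0.0977) or HP1ab_KO replicate 1 (0.0907), with log2 differences of -1.61 to -1.19 over the 9 DESeq2 fits.

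Separation of libraries was common where a group was small. In HP1ag_KO against WT, 1 of the 9 tested members had no overlap, against 13.5% of all genes. In HP1a_KO against WT it was 1 of 9, against 29.9%. Over the 6 HP1α-deficient livers it was 1 of 9, Fitm1, against 3.14% of all genes, and 1.74% lay wholly below WT as Fitm1 did.

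Fitm2 (ENSMUSG00000048486, chr2:163466379-163472629, minus strand) had 2147, 1098 and 1788 normalised reads in HP1ag_KO livers, 1585 and 2409 in HP1a_KO livers and 2111 in the HP1ab_KO liver, against 1878, 2353 and 1758 in WT livers. The genotypes overlapped. Its log2 differences from WT were -0.29 ± 0.26 in HP1ag_KO, -0.02 ± 0.29 in HP1a_KO and 0.09 ± 0.37 in the HP1ab_KO liver. The ratio of Fitm2 to Fitm1 per kilobase was 7.21, 5.84 and 11.6 in HP1ag_KO livers, 10.6 and 6.92 in HP1a_KO livers and 20.9 in the HP1ab_KO liver, against 2.95, 5.17 and 3.59 in WT livers. Each mutant liver had a higher ratio than each WT liver, while Fitm2 itself overlapped. Because Fitm1 is the denominator, the ratio restates its lower values and is not a separate result.

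**Figure D2:**
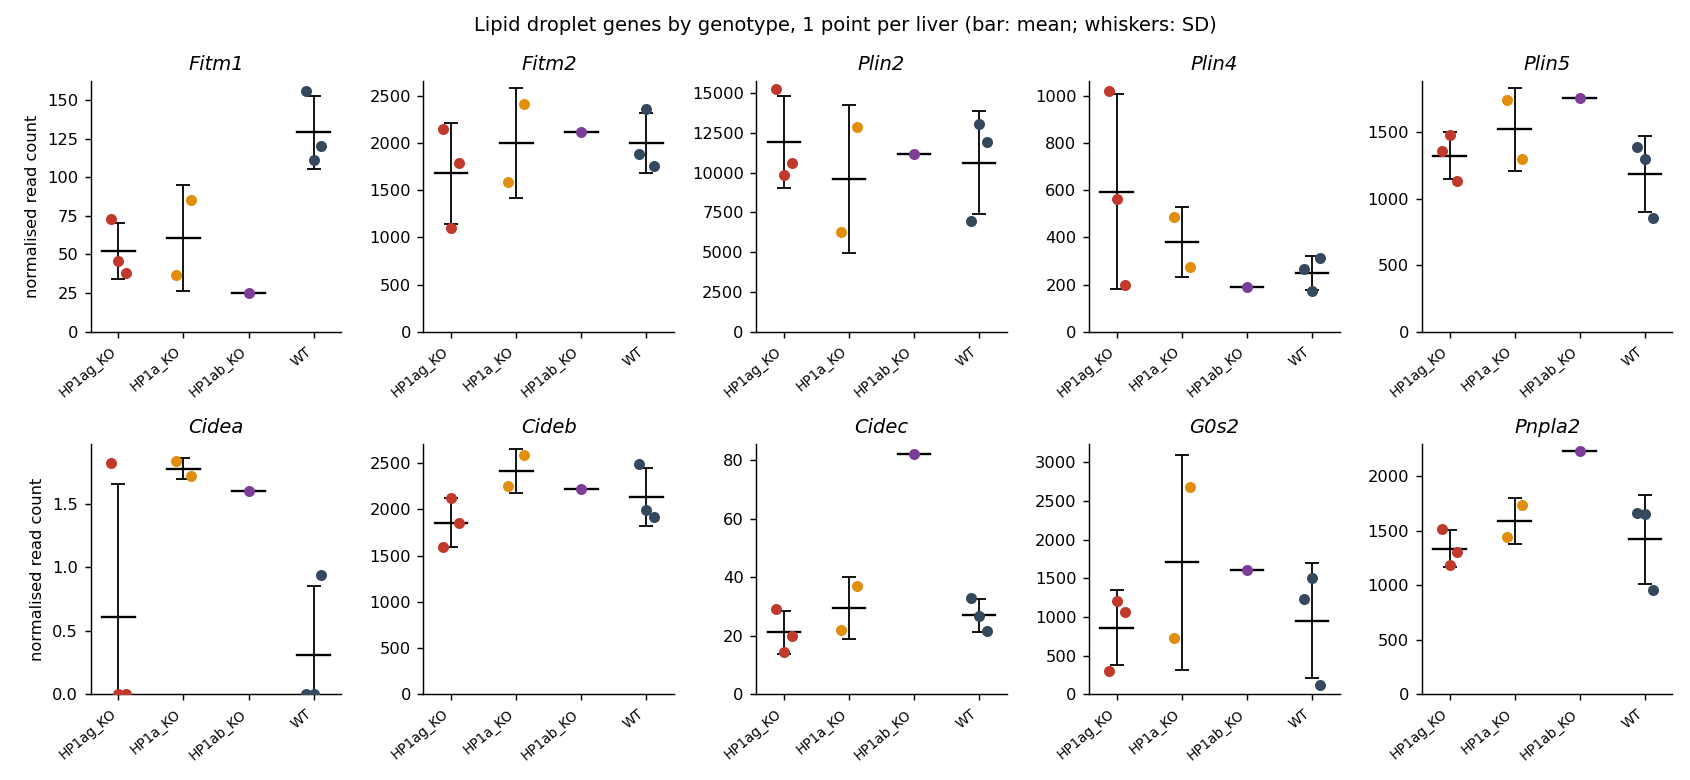
Normalised read count of each lipid droplet gene by genotype, with 1 point per liver, a bar for the mean and whiskers for the SD where a group has more than 1 liver. Fitm1 lay between 24.8 and 85.2 in HP1α-deficient livers and between 111 and 156 in WT livers, while most other genes overlapped.

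Within 20000 bases of Fitm1 on chromosome 14, 5 genes passed the filter on low values, and for none of them did all HP1α-deficient livers lie below the WT livers. Their log2 differences in HP1ag_KO against WT livers lay between -0.08 (Emc9) and 0.24 (Rnf31). In HP1a_KO livers Emc9, a subunit gene of the endoplasmic reticulum membrane complex, averaged 216 ± 61.1, against 385 ± 34.5 in WT livers. That was a log2 difference of -0.86 ± 0.19 (limma adjusted p = 0.397, DESeq2 adjusted p = 0.0478). Emc9 stood at 305 in the HP1ab_KO liver and at 331, 416 and 350 in HP1ag_KO livers, against 347 to 413 in WT livers. Over all HP1α-deficient livers its log2 difference was -0.38 ± 0.15 (limma adjusted p = 0.755). The other tested neighbours lay there between -0.13 (Dcaf11) and 0.14 (Psme1). The nearest gene, the proteasome activator Psme1, lies 1169 bases away and gave 0.10 ± 0.11 in HP1ag_KO and 0.20 ± 0.12 in HP1a_KO livers. Fitm1 shares 109 exon bases with an annotated antisense gene, and the strand setting of the counting is not given in the sources used here.

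**Figure D3:**
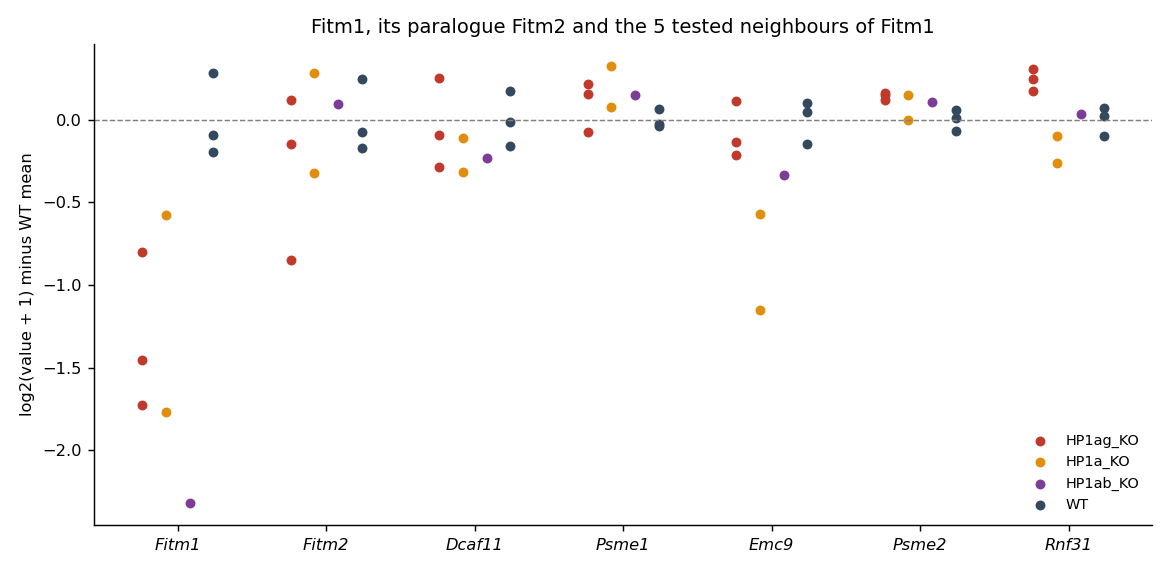
Fitm1, its paralogue Fitm2 and the 5 tested genes within 20000 bases of Fitm1, plotted as log2(value + 1) of each liver minus the WT mean, with 1 point per liver. All 6 HP1α-deficient livers sit below the 3 WT livers for Fitm1 and around 0 for most neighbours. In Fitm2 they lie on both sides of 0. The lowest there is HP1ag_KO replicate 2, with a log2(value + 1) of 10.1 against 10.8 to 11.2 in WT livers. For Emc9 the HP1a_KO livers, the HP1ab_KO liver and HP1ag_KO replicate 1 lie below the WT livers, and the other HP1ag_KO livers do not.

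Fitm1 and several coat genes are also expressed outside hepatocytes, so markers of other cells were set beside them. Of 10 skeletal muscle markers, 8 had a mean below 10, and Ckm and Acta1 were at most 1.83. Their summed level of 129 to 131 in HP1ag_KO, 127 in HP1a_KO, 141 in HP1ab_KO and 94.3 to 112 in WT livers was 87.2% Des, the intermediate filament desmin, which is also on the stellate cell list. Des averaged 111 ± 3.38 in HP1ag_KO, 108 ± 3.02 in HP1a_KO, 135 in HP1ab_KO and 89.7 ± 7.87 in WT livers. Without Des the sum was 17.9 to 21.8 in HP1ag_KO, 16.5 to 21.5 in HP1a_KO, 6.39 in HP1ab_KO and 11.4 to 14.0 in WT livers.

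Of 10 white adipocyte markers, 6 had a mean below 10, and Adipoq was at 0 in HP1ag_KO livers and at most 3.81 in WT livers. Gpd1, a glycerol-3-phosphate dehydrogenase gene that hepatocytes also express, made up 93.5% of that list's sum. Without Gpd1 the sum was 626 to 769 in HP1ag_KO, 576 to 603 in HP1a_KO, 970.1 in HP1ab_KO and 645 to 814 in WT livers. Of 7 brown adipocyte markers, Elovl3 made up 92.4% of the sum, and without it the sum was 378 to 681 in HP1ag_KO, 471 to 559.6 in HP1a_KO, 478 in HP1ab_KO and 379.97 to 431 in WT livers.

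Kupffer cell markers were higher in 13 of 13 genes over the HP1α-deficient livers, with a median log2 difference of 0.36. Their summed level was 21837 to 29689 in HP1ag_KO, 30679.9 to 34816 in HP1a_KO, 32749.7 in HP1ab_KO and 21236 to 24454 in WT livers. Stellate cell markers summed to 18860.4 to 19971 in HP1ag_KO, 22268 to 23703 in HP1a_KO, 22094 in HP1ab_KO and 14718 to 20175 in WT livers. Neutrophil markers summed to 24.7 to 123 in HP1ag_KO, 187 to 224 in HP1a_KO, 119.9 in HP1ab_KO and 31.1 to 50.5 in WT livers, with 6 of 8 below a mean of 10. Of these, S100a8 gave a log2 difference of 2.26 ± 0.51 in HP1a_KO against WT livers (DESeq2 adjusted p = 0.00941, limma adjusted p = 0.397). In that comparison DESeq2 called 0.643% of all genes. Other markers it called were Col1a1 (adjusted p = 0.00274), Col1a2 (0.0207), Slc40a1 (0.0431), Cd5l (0.0478) and the hepatocyte marker Hnf4a (0.0383). All were higher in HP1a_KO livers, and limma called none. In HP1ag_KO against HP1a_KO livers DESeq2 called Slc40a1, Col1a1 and Dnase1l3 as lower, with 3.32% of all genes called. Erythroid markers summed to 2498 to 3972 in HP1ag_KO, 4622 to 5738 in HP1a_KO, 7129 in HP1ab_KO and 4545 to 8028 in WT livers, with 5 of 5 lower in HP1ag_KO and 4 of 5 higher in HP1a_KO against WT livers. Alas2 made up 54.5% of that sum and was lower in HP1a_KO livers, at 2024 to 2812 against 2839 to 4710 in WT livers. It stood at 748 to 2627 in HP1ag_KO livers and at 2410 in the HP1ab_KO liver. Of all genes, 1.74% lay wholly below WT in the 6 HP1α-deficient livers, as Alas2 did. Without Alas2 the sum was 656 to 1824 in HP1ag_KO, 2598 to 2926 in HP1a_KO, 4719 in HP1ab_KO and 897 to 3580 in WT livers. Sinusoidal endothelial markers summed to 15500 to 17074 in HP1ag_KO, 15654 to 17788 in HP1a_KO, 18160 in HP1ab_KO and 15020 to 17004 in WT livers. Cholangiocyte markers summed to 859 to 1206 in HP1ag_KO, 683 to 899 in HP1a_KO, 899.7 in HP1ab_KO and 632 to 1634 in WT livers. The part of these cells in the values of the lipid droplet genes was not tested.

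Perilipins coat the droplet and differ in their partners: perilipin 2 is the constitutive coat of hepatocyte droplets, perilipin 4 binds nascent droplets mainly in fat and muscle, and perilipin 5 tethers droplets to mitochondria and restrains lipolysis in oxidative tissue. Plin2 (ENSMUSG00000028494, chr4:86648386-86670060, minus strand) had 15251, 9887 and 10633 normalised reads in HP1ag_KO livers, 6304 and 12880.0 in HP1a_KO livers and 11174 in the HP1ab_KO liver, against 6951, 13050.5 and 11922 in WT livers. Low and high livers occurred in both HP1a_KO and WT groups. Its log2 difference from WT was 0.19 ± 0.33 in HP1ag_KO, -0.19 ± 0.37 in HP1a_KO and 0.12 ± 0.46 in the HP1ab_KO liver. Plin2 made up 66.1 to 88.0% of the summed level of Plin2, Plin4 and Plin5 per kilobase. Plin3, a perilipin gene on the list of other coat proteins, averaged 1200.5 normalised reads and was not in that sum.

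Plin4 (ENSMUSG00000002831, chr17:56100591-56109803, minus strand) had 1021, 563 and 199 normalised reads in HP1ag_KO livers, 486 and 275 in HP1a_KO livers and 189 in the HP1ab_KO liver, against 265, 172 and 313 in WT livers. Of the HP1ag_KO livers, 1 lay inside the WT range and 2 above it. The log2 difference was 1.0 ± 0.55 in HP1ag_KO livers with an unadjusted interval of -0.26 to 2.26 (limma adjusted p = 0.709), and 0.59 ± 0.61 in HP1a_KO livers. The HP1ag_KO difference was 0.46 when HP1ag_KO replicate 1 was left out and 1.64 when HP1ag_KO replicate 3 was. With all libraries DESeq2 gave 1.26 (adjusted p = 0.364) and edgeR 1.27 (adjusted p = 0.632).

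Plin5 (ENSMUSG00000011305, chr17:56111601-56117596, minus strand) lies 1798 bases from Plin4 on the same strand. It had 1362, 1477 and 1134 normalised reads in HP1ag_KO livers, 1745 and 1302 in HP1a_KO livers and 1756 in the HP1ab_KO liver, against 1393, 1302 and 857 in WT livers. The log2 differences from WT were 0.18 ± 0.21 in HP1ag_KO, 0.38 ± 0.23 in HP1a_KO and 0.60 ± 0.29 in the HP1ab_KO liver, all with a limma adjusted p above the threshold. The neighbouring pair did not vary together over the livers (Pearson r = 0.14, n = 9, given as a description).

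CIDE proteins differ by tissue: CIDEA belongs to brown fat and fatty liver, CIDEB to the hepatocyte, where it acts in lipoprotein lipidation, and CIDEC (FSP27) to white fat and fatty liver, where it drives droplet fusion. Cideb (ENSMUSG00000022219, chr14:55754050-55758458, minus strand) had 1594, 2121 and 1852 normalised reads in HP1ag_KO livers, 2249 and 2586 in HP1a_KO livers and 2219.8 in the HP1ab_KO liver, against 2495, 1994 and 1912 in WT livers. HP1ag_KO livers all lay below both HP1a_KO livers, and each group overlapped WT. HP1ag_KO against HP1a_KO gave a log2 difference of -0.39 ± 0.16 (unadjusted p = 0.0413, limma adjusted p = 0.288), and 36.7% of all genes had no overlap in that comparison. Cideb shares 1136 exon bases with Nop9 on the opposite strand, a gene at 419.5 to 475 in these livers. If strand was not used, reads over these bases could have been gained or lost by Cideb. Cideb supplied 97.0 to 99.5% of the summed CIDE level per kilobase.

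Cidec (ENSMUSG00000030278, chr6:113424634-113435760, minus strand) had 29.2, 14.6 and 19.9 normalised reads in HP1ag_KO livers, 22.0 and 37.0 in HP1a_KO livers and 82.3 in the HP1ab_KO liver, against 32.9, 26.7 and 21.5 in WT livers. The HP1ab_KO liver stood above every other liver, at 103 reads against 12 to 43, and the remaining genotypes overlapped. Its log2 difference from WT was 1.59 ± 0.48 in the HP1ab_KO liver, against -0.37 ± 0.34 in HP1ag_KO and 0.10 ± 0.38 in HP1a_KO livers (limma adjusted p of 0.999, 0.821 and 0.943). As a group of 1, the HP1ab_KO liver gives no replicate check. Cidea (ENSMUSG00000024526) had 2 reads in all HP1ag_KO livers, 3 in HP1a_KO livers and 2 in the HP1ab_KO liver, against 1 in WT livers. No single liver had more than 2 reads, under the 3 reads that a count of 0 in a library allows. Cidea was not tested.

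Pnpla2 encodes adipose triglyceride lipase and G0s2 its inhibitor. G0s2 (ENSMUSG00000009633, chr1:193272161-193273217, minus strand) had 308, 1215 and 1063 normalised reads in HP1ag_KO livers, 728 and 2687 in HP1a_KO livers and 1613 in the HP1ab_KO liver, against 1239, 1509 and 116 in WT livers. WT replicate 3 was the lowest of the 9 livers and HP1a_KO replicate 2 the highest, so the genotypes overlapped widely. Log2 differences from WT were 0.29 ± 1.02 in HP1ag_KO, 1.22 ± 1.14 in HP1a_KO and 1.42 ± 1.44 in the HP1ab_KO liver. The unadjusted interval in HP1ag_KO livers ran from -2.05 to 2.63. Its sign against WT turned in HP1ag_KO livers with DESeq2 (-0.14) and edgeR (-0.13), and without WT replicate 3 it was -0.89 there. Leaving out 1 library moved it between 0.033 and 2.16 in HP1a_KO livers and between 0.24 and 2.08 in the HP1ab_KO liver, in each case lowest without WT replicate 3.

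Pnpla2 (ENSMUSG00000025509, chr7:141455198-141460743, plus strand) had 1517, 1182 and 1302 normalised reads in HP1ag_KO livers, 1437 and 1733 in HP1a_KO livers and 2230.2 in the HP1ab_KO liver, against 1662, 1651 and 952 in WT livers. The HP1ab_KO liver was the highest and WT replicate 3 the lowest. Log2 differences from WT were -0.05 ± 0.22 in HP1ag_KO, 0.20 ± 0.25 in HP1a_KO and 0.69 ± 0.31 in the HP1ab_KO liver, none called. Per kilobase, the ratio of the inhibitor to the lipase was 0.704, 3.56 and 2.83 in HP1ag_KO livers, 1.76 and 5.38 in HP1a_KO livers and 2.51 in the HP1ab_KO liver, against 2.58, 3.17 and 0.423 in WT livers. G0s2 exceeded Pnpla2 per kilobase in every liver but HP1ag_KO replicate 1 and WT replicate 3.

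**Figure D4:**
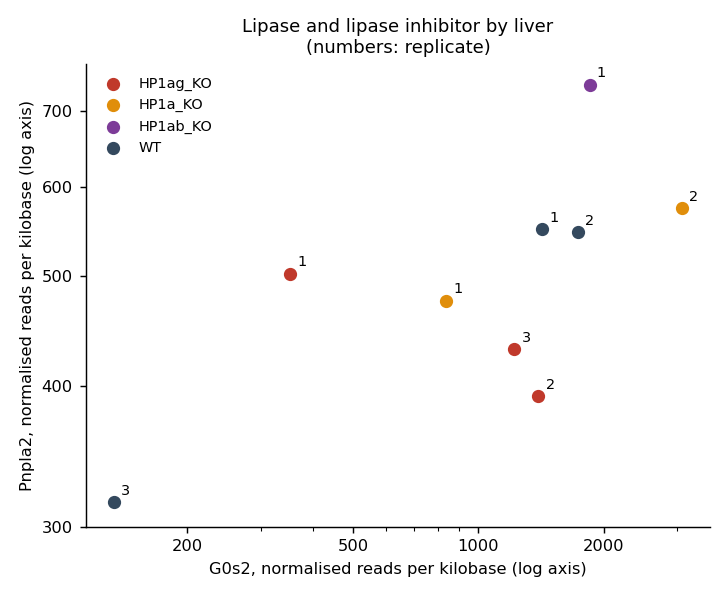
Normalised reads per kilobase of G0s2 (x, log axis) and Pnpla2 (y, log axis) in each of the 9 livers, numbered by replicate and coloured by genotype. WT replicate 3 is lowest in both genes, HP1a_KO replicate 2 is highest in G0s2 and HP1ab_KO replicate 1 is highest in Pnpla2.

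In the HP1ab_KO liver, 5 of the 9 tested members lay outside the WT range, Fitm1 below and Plin5, Cidec, G0s2 and Pnpla2 above, against 47.5% of all genes, so this share is near that of the whole table. The median log2 difference over the tested members was -0.05 in HP1ag_KO, 0.19 in HP1a_KO and 0.12 in HP1ab_KO against WT livers, with medians over all genes of -0.01, -0.00 and -0.00. In HP1ag_KO against HP1a_KO livers it was -0.25, with 2 higher and 7 lower, and -0.02 over all genes. Over all HP1α-deficient livers against WT it was 0.11, with 6 higher and 3 lower, and -0.01 over all genes.

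**Figure D5:**
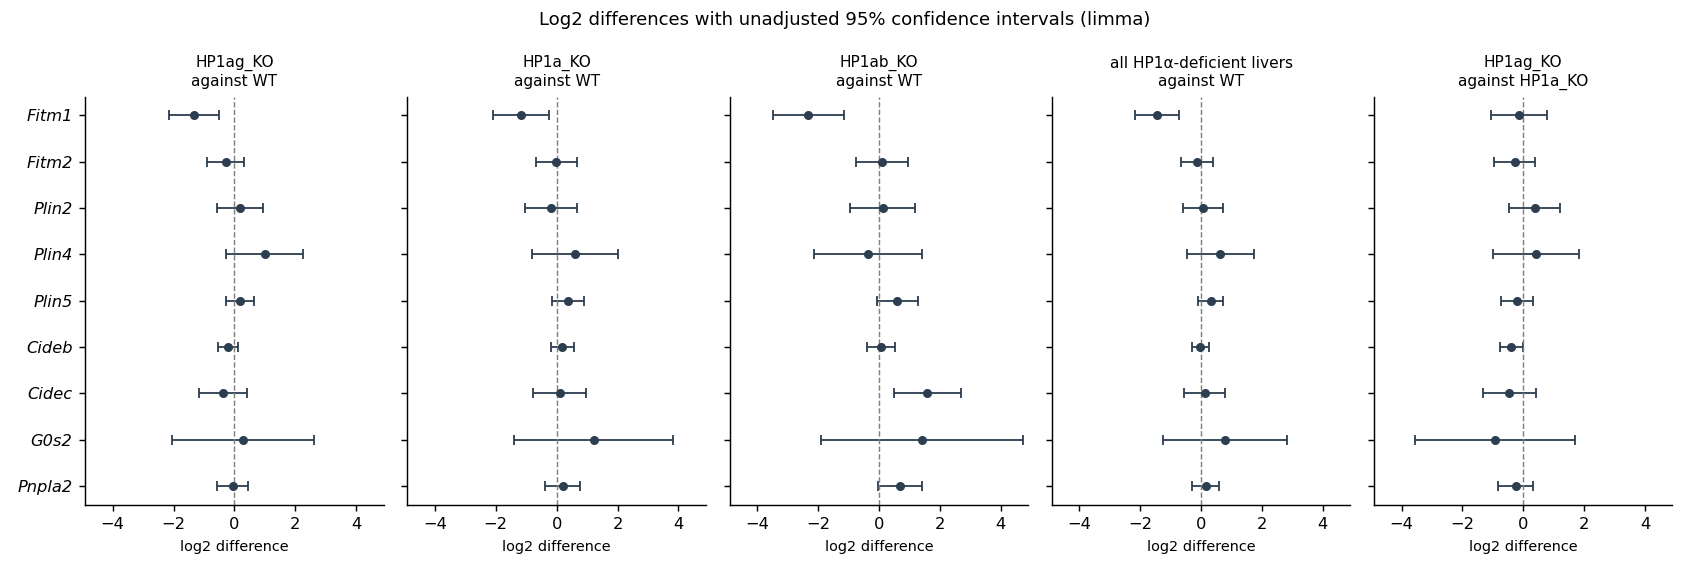
Log2 differences of the 9 tested lipid droplet genes in 5 comparisons, as limma estimates (points) with unadjusted 95% confidence intervals (bars). The intervals of Fitm1 lie below 0 in each comparison with WT, that of Cidec lies above 0 for the HP1ab_KO liver and that of Cideb below 0 for HP1ag_KO against HP1a_KO livers.

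Some of the animals carry neighbouring numbers, and the labels do not say whether such animals are related. HP1a_KO replicates 1 and 2, the whole of that group, are neighbours. Whether their spread is that of unrelated animals is thus not known. Neighbours also occur between WT and HP1ag_KO animals. HP1ag_KO replicate 1 and WT replicate 3 are neighbours, as are HP1ag_KO replicate 3 and WT replicate 2. Within these pairs of an HP1ag_KO and a WT liver the log2 difference of Fitm1 was -0.71 and -1.53, and that of Plin4 was 1.70 and 0.20. The signs of Fitm2 (0.29 and -0.40), Cidec (0.42 and -0.41), Plin2 (0.36 and -0.30), Plin5 (0.67 and -0.20), G0s2 (1.40 and -0.51) and Pnpla2 (0.67 and -0.34) differed between the pairs, so 6 of the 9 tested members changed sign.

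The wider droplet pathway was followed in 86 genes for other coat proteins, droplet biogenesis, triglyceride synthesis, hydrolysis, secretion and transcription factors, of which 82 were tested. Limma called 0 of them in each comparison. DESeq2 called 2 in HP1ag_KO against WT livers, where 0.715% of all genes were called. Aadac, a microsomal lipase of hepatocytes, averaged 9862 ± 744 in HP1ag_KO, 11557.5 ± 708 in HP1a_KO, 12425.5 in HP1ab_KO and 14775 ± 442 in WT livers. Its log2 difference was -0.59 ± 0.10 in HP1ag_KO livers (DESeq2 adjusted p = 2.38e-05, limma adjusted p = 0.232). Over all HP1α-deficient livers DESeq2 called Aadac too (adjusted p = 0.000498, limma adjusted p = 0.451), where 0.332% of all genes were called. These 6 livers had 9245 to 12425.5, below the 14394.5 to 15260 of WT livers. Of all genes, 1.74% lay wholly below WT in this way. Pnpla3, a droplet-bound lipase paralogue of Pnpla2, averaged 92.8 ± 35.2 in HP1ag_KO, 49.0 ± 12.2 in HP1a_KO, 40.8 in HP1ab_KO and 27.9 ± 11.4 in WT livers, with a log2 difference of 1.71 ± 0.37 in HP1ag_KO livers (DESeq2 adjusted p = 0.0121, limma adjusted p = 0.394).

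In HP1ag_KO against WT livers 31 of the 82 genes were higher and 51 lower, with a median log2 difference of -0.07 against -0.01 over all genes. In HP1a_KO against WT livers they were 34 and 48, with a median of -0.05. Triglyceride synthesis had 9 of 15 tested genes lower in HP1ag_KO (median -0.07), 14 in HP1a_KO (median -0.17) and 8 in HP1ab_KO against WT livers (median -0.01). Its member Gpam, the acyltransferase of the first step, averaged 5032 ± 85.3 in HP1a_KO, against 6392 ± 824 in WT livers. The Gpam log2 difference of -0.34 ± 0.21 was not called by limma (adjusted p = 0.603). Hydrolysis had 11 of 14 lower in HP1ag_KO (median -0.20), 11 in HP1a_KO (median -0.19) and 8 in HP1ab_KO against WT livers (median -0.12). Biogenesis had 8 of 10 higher in HP1ag_KO (median 0.03), 6 in HP1a_KO (median 0.17) and 6 in HP1ab_KO against WT livers (median 0.01). Its member Tm6sf2, which acts in lipidation of lipoproteins, averaged 826 ± 216 in HP1ag_KO, 713 ± 160 in HP1a_KO, 682 in HP1ab_KO and 502 ± 111 in WT livers (log2 difference 0.71 ± 0.23 in HP1ag_KO livers, limma adjusted p = 0.584).

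Among regulators, 15 transcription factor genes gave a median log2 difference of -0.05 in HP1ag_KO and 0.01 in HP1a_KO livers. Mlxipl, which encodes the glucose-responsive factor ChREBP, averaged 3640.0 ± 989 in HP1ag_KO, 2429.7 ± 78.6 in HP1a_KO, 2615 in HP1ab_KO and 2922.5 ± 369.9 in WT livers, and Foxo1 averaged 547 ± 162 in HP1ag_KO, 1055 ± 20.9 in HP1a_KO, 662 in HP1ab_KO and 753 ± 477 in WT livers. Neither was called. Droplet-bound Rdh16 averaged 2184.5 ± 695 in HP1ag_KO and 1048 ± 18.3 in HP1a_KO livers, a log2 difference of 1.01 ± 0.26 (DESeq2 adjusted p = 0.0102, limma adjusted p = 0.154). In that comparison, where DESeq2 called 3.32% of all genes, it called 1 listed gene as higher (Rdh16) and 2 as lower (Apob and Hsd17b11, named after their values were seen).

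For the 3 members with the widest range, the named genes with the most similar profile were taken over the 9 livers by Pearson r on the log2 scale, among 12432 genes. They were Bcas3 (r = 0.92) and Piezo2 (0.92) for G0s2, Vps36 (0.93), Trim44 (0.92) and Col24a1 (0.92) for Fitm1, and Zswim8 (0.91), Fam19a2 (0.91) and Trp53inp1 (0.91) for Plin4. An r above 0.9 was reached by 7 genes for G0s2, 4 for Fitm1 and 3 for Plin4. Between members the closest pair was Cidec and Pnpla2 (r = 0.84), both highest in the HP1ab_KO liver, followed by Plin5 with Pnpla2 (0.69) and G0s2 with Pnpla2 (0.69). The lowest was Fitm1 with Plin5 (-0.56). All points share the 9 libraries and their scaling, and these r values are descriptions.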

How the data were processed

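Per the labels' protocols, stranded libraries were made from frozen liver after removal of ribosomal RNA. DESeq2 1.0.19, HTSeq 0.5.4p3, TopHat2 2.0.10, Bowtie2 2.1.0, CASAVA 1.8.2 and the build mm10 (GRCm38) are listed, without their roles, in the submitters' processing notes. The sources used here do not state the strand setting of the counting or the annotation release. Each deposited value is a normalised signal, and its steps show that the authors divided read counts by a size factor per library. Whole reads were recovered for 100% of values (tolerance 0.1 read), with size factors of 0.545 to 1.25 and 16266423 to 36161177 reads per library. Counting limits cover counting error only.

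Groups were taken from the genotype labels, and replicates were numbered in accession order. Pairs of replicates had a chi-square of 52.9 to 136 per degree of freedom, far from copies of each other. Genes whose mean reached 10 (13845) were tested with limma 3.58.1 (trend on the mean, R 4.3.3) on log2(value + 1). The 4 groups shared 1 fit with 5 residual degrees of freedom and 3.13 from the prior, which assumes that the HP1ab_KO library varied like the other groups. Calls needed an adjusted p under 0.05 (Benjamini-Hochberg, all tested genes of a comparison). DESeq2 1.42.0 and the quasi-likelihood test of edgeR 4.0.16 were applied to the whole reads, and the steps were tested on simulated data. Other alternatives covered pseudocounts of 0.5 and 5, no filter or a mean of 50, TMM scaling, equal totals, no trend, robust shrinkage and array weights. Fits of only the groups compared, with a term for runs of animal numbers, and leaving out each replicate were also run.

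All 10 members were described, with up to 2 genes per list eligible for naming by smallest limma p in HP1ag_KO or HP1a_KO against WT livers. For the 3 widest-ranging members, the 3 named genes with the highest Pearson r were taken, of which 1 is not reported here. The members, the pathway and marker lists and the rules were chosen with earlier results of these data known. GENCODE annotation of GRCm38 matched 22257 of 22701 genes (98.0%) and gave positions and exon lengths. Promoter windows came from RefSeq (GRCm38.p6). Python 3.11.15 with numpy 2.4.6, pandas 2.3.3, scipy 1.17.1 and matplotlib 3.10.9 was used.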

Additional observations from a re-analysis of the deposited data

Results flagged for a closer look

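Cidec in the HP1ab_KO liver stood apart from the other HP1α-deficient livers. It had 82.3 normalised reads there, and the next highest of the 6 HP1α-deficient livers had 37.0. The gap made up 0.669 of the range of the 6 livers, above the critical value of 0.625 for 6 samples of 1 population. They pool HP1ag_KO, HP1a_KO and HP1ab_KO livers, and the flagged liver is the whole HP1ab_KO group. The test thus cannot separate an outlier from a genotype. In 1 population chance marks about 1 in 20 such groups, a rate that need not hold here, and 9 members were examined. The rule used normalised reads. On the log2(value + 1) scale Cidec was 6.38 in the HP1ab_KO liver, 5.25 in the next and 3.96 in the lowest of the 6. There the gap is a part of the range below the critical value of 0.625, so the flag depends on the scale. The HP1ab_KO liver was also the highest of the 9 in Pnpla2 (2230.2) and Plin5 (1756) and the lowest in Fitm1 (24.8).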

How the results depend on the processing

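Group sizes of 1 to 3 livers limit every comparison, the lone HP1ab_KO liver gives no replicate check, and Cidea was too low to test. Fitm1 stayed below WT in every fit run, from -1.59 to -1.13 in HP1ag_KO, -1.77 to -0.58 in HP1a_KO, -2.42 to -2.16 in HP1ab_KO and -1.61 to -1.19 over all HP1α-deficient livers. The value of -0.58 is without HP1a_KO replicate 1, and -1.77 without HP1a_KO replicate 2. No paired analysis was possible because the replicate numbers follow accession order, and the labels do not say that neighbouring animal numbers in the titles mark related animals. A separate term for runs of animal numbers set HP1ag_KO replicates 1 and 2 and WT replicate 3 against HP1ag_KO replicate 3 and WT replicate 2. HP1ag_KO replicate 2 is not an immediate neighbour of the others in its run. In this fit of 5 livers Plin2 turned to -0.10 and Pnpla2 to 0.13 in HP1ag_KO against WT livers. The 2-group fit, the fits without the HP1ab_KO liver and the DESeq2 fits leaving out libraries were chosen after seeing the data. A fit of only the groups compared would repeat the same fit over all HP1α-deficient livers and was not run there.

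Genes called by limma were 0 in each comparison. DESeq2 called 99 in HP1ag_KO, 89 in HP1a_KO, 11 in HP1ab_KO and 46 over all HP1α-deficient against WT livers, and 459 in HP1ag_KO against HP1a_KO livers, with 1 member (Fitm1) in HP1ab_KO and 1 over all HP1α-deficient livers. HP1a_KO against WT gave 1 with pseudocount 5 and 1 with array weights, HP1ab_KO against WT 54 without a filter, and HP1ag_KO against HP1a_KO 7 without a trend and 26 with array weights. Leaving out 1 library gave 0 to 2 for HP1ag_KO, 0 to 5 for HP1a_KO, 0 to 2 for HP1ab_KO and 0 to 1 over all against WT, and 0 to 5 for HP1ag_KO against HP1a_KO, with calls only without WT replicate 3, HP1ag_KO replicate 1 or HP1a_KO replicate 2, and members called stayed at 0.

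Of 45 member differences, 22 changed sign under at least 1 alternative, none with a size above 0.93. Array weights gave Plin2 -0.017 in HP1ag_KO, -0.025 in HP1ab_KO and -0.12 over all against WT, Cideb 0.025 over all against WT, and Plin4 -0.077 in HP1ag_KO against HP1a_KO livers. G0s2 in HP1ag_KO against WT was -0.14 with DESeq2 and -0.13 with edgeR, and Fitm2 in HP1a_KO against WT 0.0090 with edgeR. Leaving out 1 library gave these ranges. HP1ag_KO against WT had Plin2 -0.092 to 0.36, Plin5 -0.033 to 0.32, G0s2 -0.89 to 0.95 and Pnpla2 -0.32 to 0.081. HP1a_KO against WT had Fitm2 -0.32 to 0.28, Plin2 -0.70 to 0.33, Cidec -0.26 to 0.46 and Pnpla2 -0.070 to 0.33. HP1ab_KO against WT had Plin2 -0.16 to 0.30 and Cideb -0.0069 to 0.18. HP1ag_KO against HP1a_KO had Fitm1 -0.75 to 0.44, Fitm2 -0.58 to 0.027, Plin2 -0.14 to 0.89, Plin4 -0.13 to 1.05, Plin5 -0.41 to 0.016 and G0s2 -1.87 to 0.014. All HP1α-deficient livers against WT had Fitm2 -0.22 to 0.0046, Plin2 -0.23 to 0.23, Cideb -0.10 to 0.091, Cidec -0.18 to 0.30, G0s2 -0.40 to 1.45 and Pnpla2 -0.11 to 0.29. The cause of these changes was not tested.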
